A study of Mus musculus with 6 samples.

Results

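Protein phosphatase 2A (PP2A) is represented here by 10 genes of its subunits, out of 39179 gene identifiers counted in tumour grafts. They were taken by gene symbol from the authors' deposited comparison table and joined by identifier to the raw counts of each library. The set holds the 4 B55 regulatory subunit genes Ppp2r2a, Ppp2r2b, Ppp2r2c and Ppp2r2d, the 2 scaffold subunit genes Ppp2r1a and Ppp2r1b, the 2 catalytic subunit genes Ppp2ca and Ppp2cb, and 2 genes of B56 regulatory subunits, Ppp2r5a and Ppp2r5c. The family was chosen by measured values of the comparison described here, because Ppp2r2c and Ppp2r2b were among the genes with the largest falls. The differences of the members between the groups are therefore given as a description, with intervals and without p-values.

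The study compared mammary tumour grafts in FVB mice that grew from AXL+/+ cells (labelled WT, 3 libraries) or AXL-/- cells (labelled AXL KO, 3 libraries). MMTV-Neu, named for all 6 grafts, is a transgene in which a mouse mammary tumour virus promoter drives the receptor tyrosine kinase Neu in mammary epithelium. AXL is another receptor tyrosine kinase, of the TAM family. The sources used here give no animal age, do not say how many cell isolates or clones each genotype stands for, and do not say that the 3 libraries of a group came from separate mice. The p-values below measure only the spread between these libraries, which may be technical in part. A graft also holds vessels, fibroblasts and immune cells of the host, whose Axl gene the labels do not describe.

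PP2A is one of the main serine and threonine phosphatases of the cell. A scaffold subunit and a catalytic subunit form its core, and 1 of many interchangeable regulatory subunits binds that core and sets which proteins are dephosphorylated and where in the cell. B55 holoenzymes act on mitotic substrates at mitotic exit and on proteins such as tau and kinases of growth factor pathways. B56 holoenzymes act at kinetochores and on Wnt and MYC signalling. In mammals the B55 alpha and delta forms (Ppp2r2a and Ppp2r2d) are expressed widely, whereas the beta and gamma forms (Ppp2r2b and Ppp2r2c) are best known from the nervous system.

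The libraries held between 26541009 and 32491807 counts in genes. All 10 members passed the filter on low counts and were among the 14850 genes tested with edgeR's quasi-likelihood test, with a Benjamini-Hochberg adjusted p under 0.05 as the threshold for a call. Levels are CPM, counts scaled per library for its size and TMM factor, and fold changes are AXL KO over WT. Axl itself did not check the genotype labels. It had 1906, 1761 and 1507 counts in the WT libraries and 1360, 2396 and 1767 in the AXL KO libraries, a log2 fold change of -0.01 ± 0.16 (SE), and the deleted part of the gene is not given. Directions below are between libraries as labelled.

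The 2 genes that gave the family its place fell steeply in the AXL KO libraries, and the other 8 members differed by less than 1.5-fold. By the threshold, 5 of 10 members were called lower (Ppp2r2a, Ppp2r2b, Ppp2r2c, Ppp2r1a and Ppp2r5c), 1 was called higher (Ppp2r1b) and 4 were not called. Over all tested genes 18.3% were called lower and 19.1% higher, 37.4% in all. Of the 10 members, 9 had groups that did not overlap, against 52.1% of all tested genes. The median log2 fold change was -0.26 over the members and 0.000318 over all tested genes, and the median absolute log2 fold change of all tested genes was 0.274. Without WT replicate 3, AXL KO replicate 1 or AXL KO replicate 3, 3 members were called lower. Because the members were selected on this contrast, nothing is read from these counts. In bulk libraries such as these, fewer cells of a type and less RNA per cell cannot be told apart.

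**Figure D1:**
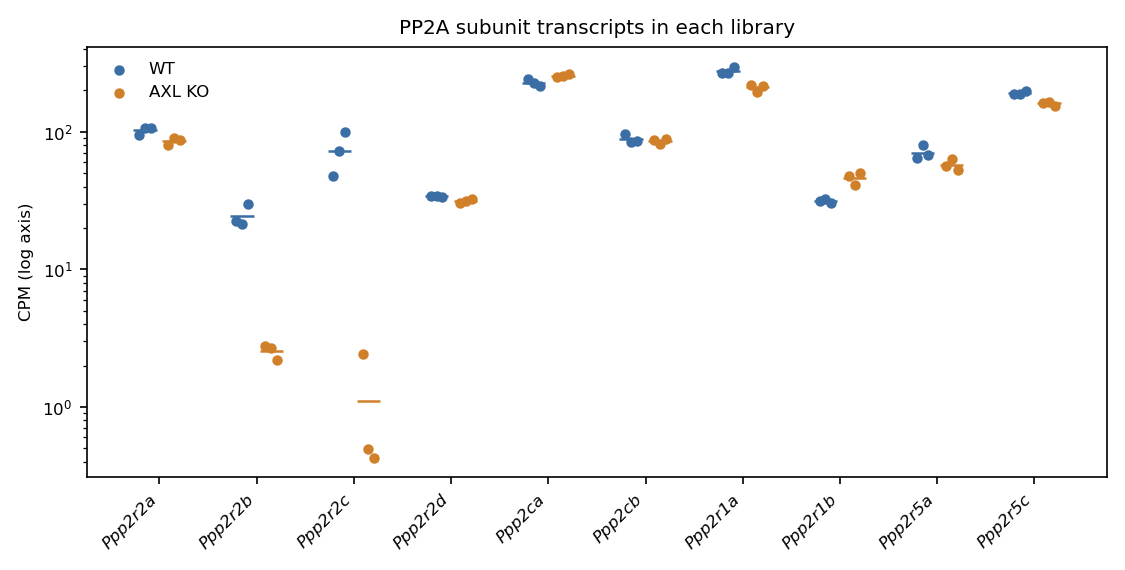
CPM of the 10 subunit genes (log axis) in each library, WT in blue and AXL KO in orange; points are single libraries and bars are group means of 3. Ppp2r2c and Ppp2r2b sit far lower in the AXL KO libraries, 1.11 against 73.0 and 2.55 against 24.6 CPM on average, while the other genes stay within 1.5-fold.

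Ppp2r2c encodes the gamma form of the B55 subunit and lies on chromosome 5 (GRCm38, 36868513 to 36955078, plus strand; ENSMUSG00000029120). It had 1287, 2177 and 2850 counts in WT replicates 1, 2 and 3, and 68, 16 and 13 counts in AXL KO replicates 1, 2 and 3. In CPM this was 47.4, 72.4 and 99.4 against 2.41, 0.494 and 0.427. Every WT library was at least an order of magnitude above every AXL KO library, and within the AXL KO group replicate 1 stood above the other two. Group means were 73.0 ± 26.0 and 1.11 ± 1.13 CPM (SD, n = 3 each). The log2 fold change was -6.08 ± 0.50 (SE), 67.6-fold lower with a 95% interval of 30.8-fold to 149-fold. Leaving out AXL KO replicate 1 moved that size most: the difference was 157-fold without it and 51.5-fold to 79.7-fold when any other library was left out. The authors' deposited table gives a log2 fold change of -4.44 ± 0.62 (SE) for Ppp2r2c, smaller in size than the value from the counts. The submitters' notes name DESeq2 1.4.5, and DESeq2 1.42.0 on the same counts gave -6.05. Why the deposited value is smaller was not tested. Of all 14850 genes tested with edgeR, 1 had a lower log2 fold change than Ppp2r2c.

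Ppp2r2b encodes the beta form and lies on chromosome 18 (42637432 to 43059471, minus strand; ENSMUSG00000024500). It had 611, 645 and 855 counts in the WT libraries and 78, 87 and 67 in the AXL KO libraries, or 22.5, 21.4 and 29.8 CPM against 2.76, 2.69 and 2.20 CPM. The groups were far apart, and the AXL KO libraries were close to each other. Means were 24.6 ± 4.57 and 2.55 ± 0.305 CPM (SD, n = 3 each), 9.63-fold lower with a 95% interval of 7.37-fold to 12.6-fold (log2 fold change -3.27 ± 0.17, SE). Leaving out any 1 library gave 8.60-fold to 10.2-fold. Unlike for Ppp2r2c, AXL KO replicate 1 did not stand apart: its CPM was 1.13 times the mean of the other 2 AXL KO libraries, against 5.23 times for Ppp2r2c. The authors' deposited table gives -3.22 ± 0.18 (SE) for Ppp2r2b. Of all tested genes, 24 had a lower log2 fold change.

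The widely expressed B55 genes differed little. Ppp2r2a, the alpha form (chromosome 14, 67014056 to 67072444, minus strand; ENSMUSG00000022052), had 94.4, 107 and 107 CPM in WT and 80.4, 89.7 and 86.8 CPM in AXL KO libraries. The AXL KO libraries lay just below the WT libraries without overlap, with means of 103 ± 7.24 and 85.6 ± 4.74 CPM (SD, n = 3 each) and a log2 fold change of -0.26 ± 0.08 (SE), 1.2-fold lower. The call of Ppp2r2a was lost without WT replicate 2, WT replicate 3, AXL KO replicate 1 or AXL KO replicate 3. Ppp2r2d, the delta form (chromosome 7, 138846079 to 138883057, plus strand; ENSMUSG00000041769), had 34.3, 34.0 and 33.5 CPM in WT and 30.6, 31.6 and 32.6 CPM in AXL KO libraries. Its log2 CPM had an SD of 0.02 in WT libraries, the smallest of the 10 members there, and of 0.05 in AXL KO libraries, where Ppp2ca had 0.03. The medians over all tested genes were 0.15 and 0.11. Its log2 fold change was -0.10 ± 0.07 (SE), with a 95% interval from -0.26 to 0.06, and it was not called.

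The promoters of the B55 genes at the extremes are shown because Ppp2r2c fell most and Ppp2r2d differed least within the class. Each is the 250 bases before a start of the gene in the RefSeq promoter table (GRCm38.p6), printed from 5′ to 3′ on the gene's strand. Windows of 7 of the 10 members were used. Ppp2r2a, Ppp2r2b and Ppp2cb were not among them, so the promoter of Ppp2r2b, the other gene that fell steeply, was not examined. The windows are chr5:36868260-36868509 and chr7:138846109-138846358, both on the plus strand, the latter being the first of 2 annotated starts. The Ppp2r2d window lies inside the span given above for the gene, which begins at 138846079 in GENCODE M21, upstream of this RefSeq start. Capitals mark GGGCGG, the GC box bound by SP-family factors, in Ppp2r2c, and TGACGTCA, the full cyclic AMP response element, in Ppp2r2d.
Ppp2r2c: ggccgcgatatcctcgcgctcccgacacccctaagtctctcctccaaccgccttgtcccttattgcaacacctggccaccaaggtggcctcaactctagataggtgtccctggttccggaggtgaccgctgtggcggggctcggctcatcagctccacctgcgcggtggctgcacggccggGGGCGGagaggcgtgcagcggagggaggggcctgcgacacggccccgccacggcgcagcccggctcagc
Ppp2r2d: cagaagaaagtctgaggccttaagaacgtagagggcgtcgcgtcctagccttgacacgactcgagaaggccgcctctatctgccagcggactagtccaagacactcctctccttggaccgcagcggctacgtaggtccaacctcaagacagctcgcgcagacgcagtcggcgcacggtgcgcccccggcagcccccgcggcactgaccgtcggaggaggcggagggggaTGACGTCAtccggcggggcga
In all, 4 motifs that do not contain each other were searched on both strands of 32851 windows of this length. The GC box GGGCGG occurs in 32.7% of windows. The TATA box, spelled TATAAA, occurs in 12.4%. The CCAAT box occurs in 33.8%, and the element TGACGTCA in 1.55%. The Ppp2r2c window held 1 GGGCGG and none of the other 3 motifs, and 23 CpG dinucleotides at 69.6% GC, more CpG than 86.7% of windows. The Ppp2r2d window held 1 TGACGTCA, no GGGCGG and 28 CpG dinucleotides at 65.6% GC. Among the other members, Ppp2ca also held 1 TGACGTCA, with 2 GGGCGG and 30 CpG dinucleotides. The TATA box was in none of the windows of these 7 members, and the median window of all genes held 6 CpG dinucleotides at 52.4% GC. These matches describe the letters only.

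The 2 scaffold genes moved in opposite directions. Ppp2r1a, the predominant scaffold isoform (chromosome 17, 20945311 to 20965916, plus strand; ENSMUSG00000007564), had 266, 267 and 298 CPM in WT and 218, 196 and 216 CPM in AXL KO libraries. All WT libraries were above all AXL KO libraries, with means of 277 ± 18.4 and 210 ± 12.0 CPM (SD, n = 3 each) and a log2 fold change of -0.40 ± 0.08 (SE), 1.32-fold lower. Ppp2r1b, the second scaffold isoform (chromosome 9, 50845301 to 50894229, plus strand; ENSMUSG00000032058), had 31.5, 32.4 and 30.6 CPM in WT and 48.1, 41.2 and 50.2 CPM in AXL KO libraries. Here all AXL KO libraries were higher, with means of 31.5 ± 0.889 and 46.5 ± 4.72 CPM (SD, n = 3 each) and a log2 fold change of 0.56 ± 0.09 (SE), 1.48-fold higher. Both calls were kept in every one of the 13 alternative fits.

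Part of Ppp2r1b overlaps Sik2, a salt-inducible kinase gene on the opposite strand, and 20.4% of the 50-base words in Ppp2r1b transcripts also occur in Sik2 transcripts. Sik2 went from 31.4 ± 9.20 to 45.8 ± 4.61 CPM (SD, n = 3 each), a log2 fold change of 0.54 ± 0.19 (SE; edgeR adjusted p = 0.0498). Whether counting used the strand is not given, so reads from the shared stretch cannot be assigned to either gene with certainty.

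The catalytic genes were the most even class. Ppp2ca, the alpha catalytic subunit (chromosome 11, 52098681 to 52127778, plus strand; ENSMUSG00000020349), had 242, 225 and 214 CPM in WT and 251, 253 and 261 CPM in AXL KO libraries. The AXL KO libraries were slightly above the WT libraries, with a log2 fold change of 0.17 ± 0.07 (SE) and a 95% interval from 0.01 to 0.33, and the gene was not called unless WT replicate 1 was left out (0.22). Ppp2cb, the beta catalytic subunit (chromosome 8, 33599625 to 33619441, plus strand; ENSMUSG00000009630), had 96.0, 84.5 and 85.9 CPM in WT and 86.5, 82.2 and 88.9 CPM in AXL KO libraries. It was the one member whose groups overlapped, with a log2 fold change of -0.05 ± 0.08 (SE) and a 95% interval from -0.23 to 0.13. That interval holds levels in AXL KO libraries from 0.854 to 1.09 times those in WT libraries, and the sign of the log2 fold change turned (0.01) without WT replicate 1.

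Both B56 genes were slightly lower in AXL KO libraries. Ppp2r5c, the gamma form of B56 (chromosome 12, 110447120 to 110583062, plus strand; ENSMUSG00000017843), had 189, 188 and 199 CPM in WT and 161, 166 and 155 CPM in AXL KO libraries. The groups did not overlap, with means of 192 ± 5.83 and 161 ± 5.68 CPM (SD, n = 3 each) and a log2 fold change of -0.25 ± 0.07 (SE). The call of Ppp2r5c was lost without WT replicate 3, AXL KO replicate 1 or AXL KO replicate 3. Ppp2r5a, the alpha form (chromosome 1, 191351975 to 191403272, minus strand; ENSMUSG00000026626), had 64.6, 80.0 and 67.3 CPM in WT and 56.7, 63.3 and 53.2 CPM in AXL KO libraries. Its groups were separated by a small gap, with a log2 fold change of -0.29 ± 0.10 (SE), and it was not called with edgeR. DESeq2, upper-quartile factors, and leaving out WT replicate 1 or AXL KO replicate 2 each gave a call.

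**Figure D2:**
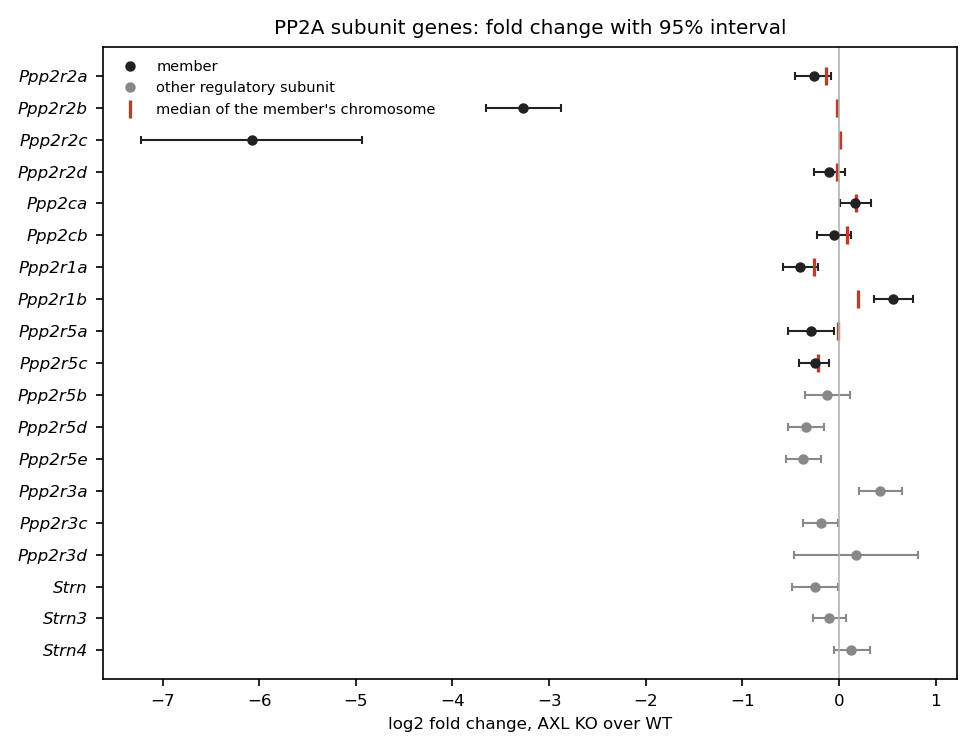
Log2 fold change (AXL KO over WT) of the 10 members (black) and of 9 other PP2A regulatory subunit genes (grey), with 95% intervals; red ticks are the median of all tested genes on the member's chromosome. Ppp2r2c at -6.08 and Ppp2r2b at -3.27 lie apart, and every other gene shown lies between -0.40 and 0.43 except Ppp2r1b at 0.56.

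To set regulatory subunits against the core, levels were divided by the length of each gene's annotated exons, which allows genes to be compared in CPM per kb. In WT libraries the order from high to low was Ppp2r1a (81.2 ± 5.39), Ppp2cb (60.5 ± 4.24), Ppp2ca (30.3 ± 1.84), Ppp2r5c (23.2 ± 0.704), Ppp2r2a (19.1 ± 1.35), Ppp2r2c (16.4 ± 5.85), Ppp2r5a (7.35 ± 0.859), Ppp2r2b (6.17 ± 1.15), Ppp2r2d (5.74 ± 0.0706) and Ppp2r1b (4.88 ± 0.138) CPM per kb (SD, n = 3 each). Neighbours in that order whose difference was within their spread were Ppp2r2a and Ppp2r2c, Ppp2r5a and Ppp2r2b, and Ppp2r2b and Ppp2r2d. In AXL KO libraries Ppp2r1a (61.5 ± 3.51) and Ppp2cb (58.4 ± 2.33) were within their spread of each other. Next came Ppp2ca (34.1 ± 0.702), Ppp2r5c (19.4 ± 0.686) and Ppp2r2a (15.9 ± 0.882). Ppp2r1b (7.21 ± 0.731) and Ppp2r5a (6.01 ± 0.530) overlapped between libraries, Ppp2r2d followed (5.35 ± 0.168), and Ppp2r2b (0.640 ± 0.0765) and Ppp2r2c (0.249 ± 0.253) were last. Part of this order depends on the length used. With the longest annotated transcript in place of all exons, a choice made after seeing the data, Ppp2r5c (46.7 ± 1.42) came by its mean before Ppp2ca (31.9 ± 1.94) and Ppp2r5a (19.9 ± 2.33) before Ppp2r2c (17.9 ± 6.37) in WT libraries. In AXL KO libraries the same length put Ppp2r5c (39.1 ± 1.38) before Ppp2ca (35.9 ± 0.740) and Ppp2r5a (16.3 ± 1.44) before Ppp2r1b (12.8 ± 1.29). With both lengths Ppp2r1a was first and Ppp2cb second by the mean of each group, and Ppp2r2b and Ppp2r2c were last in AXL KO libraries. The swap could hardly change the order of the catalytic genes. Ppp2cb had 1469 bases by both lengths, and Ppp2ca had 7490 and 7102. Before division by length Ppp2ca was the higher of the pair, with means of 227 against 88.8 CPM in WT libraries.

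As a sum the B55 class held less RNA in AXL KO libraries, and its make-up differed. Most of the fall lay in Ppp2r2c and Ppp2r2b, the genes on which the family was chosen. Summed over the 4 genes, B55 levels were 39.6, 47.2 and 55.4 CPM per kb in WT and 21.4, 22.8 and 22.3 CPM per kb in AXL KO libraries. The WT libraries were all higher and spread more widely, 47.4 ± 7.90 against 22.2 ± 0.733 CPM per kb (SD, n = 3 each). Ppp2r2c made up 26.9%, 34.5% and 40.3% of the B55 sum in WT libraries and 2.53%, 0.487% and 0.430% in AXL KO libraries. Ppp2r2b went from 13.0% ± 1.47 to 2.89% ± 0.388, Ppp2r2a from 40.7% ± 4.27 to 71.8% ± 1.63 and Ppp2r2d from 12.4% ± 2.22 to 24.2% ± 0.644 (SD, n = 3 each). Ppp2r2a and Ppp2r2d gained share while their own levels were slightly lower: together they had 24.8 ± 1.29 CPM per kb in WT and 21.3 ± 1.0 in AXL KO libraries.

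The core sums differed much less. Scaffold levels summed to 86.1 ± 5.27 CPM per kb in WT and 68.7 ± 4.21 in AXL KO libraries, and catalytic levels to 90.7 ± 5.92 and 92.5 ± 2.81 (SD, n = 3 each). The B56 pair summed to 30.5 ± 0.835 and 25.4 ± 1.21 CPM per kb. The ratio of B55 to scaffold RNA was 0.478, 0.568 and 0.601 in WT libraries and 0.300, 0.357 and 0.314 in AXL KO libraries, with no overlap. The B55 sum includes Ppp2r2c and Ppp2r2b, on whose falls the family was chosen, so this separation is a description only. The ratio of Ppp2r2a plus Ppp2r2d to scaffold RNA was 0.281, 0.307 and 0.278 in WT and 0.282, 0.345 and 0.305 in AXL KO libraries, and these overlapped. The ratio of the B56 pair to scaffold RNA overlapped as well (0.355 ± 0.0186 and 0.371 ± 0.0405, SD, n = 3 each). Catalytic over scaffold RNA was 1.18, 1.05 and 0.945 in WT and 1.30, 1.41 and 1.34 in AXL KO libraries, higher in every AXL KO library. The size of these ratios moved with the length used while the direction between the groups was kept: with the longest transcript, catalytic over scaffold RNA was 0.834, 0.747 and 0.671 in WT and 0.910, 0.989 and 0.942 in AXL KO libraries, and the B56 pair over scaffold RNA was 0.540 ± 0.0314 and 0.558 ± 0.0633 (SD, n = 3 each), again overlapping. Within the scaffold pair the share of Ppp2r1b went from 5.69% ± 0.476 to 10.5% ± 0.479, and within the catalytic pair the share of Ppp2ca went from 33.4% ± 0.767 to 36.8% ± 0.755. These ratios are of RNA, and protein was not measured.

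**Figure D3:**
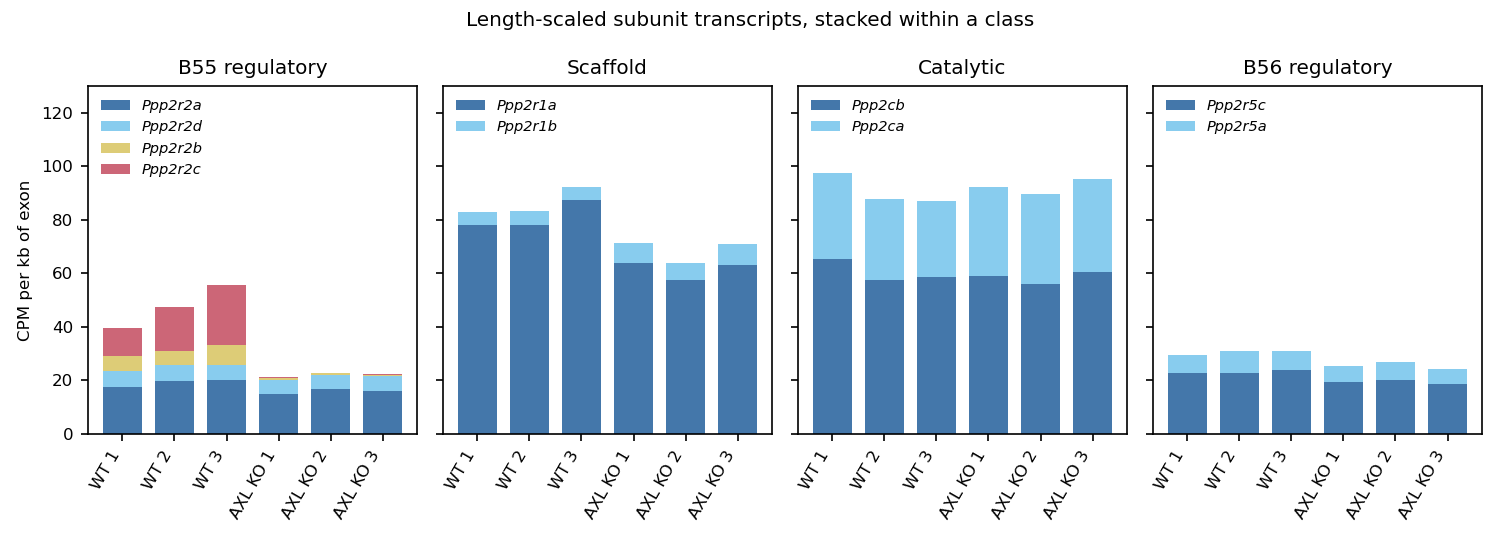
Length-scaled levels (CPM per kb of exon) of the members in each of the 6 libraries, stacked by subunit class with a common axis from 0. The B55 stack stands at 39.6 to 55.4 in WT libraries and at 21.4 to 22.8 in AXL KO libraries, with almost no Ppp2r2c and Ppp2r2b left, while the catalytic stack stays between 87.1 and 97.6.

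In this comparison whole chromosomes had medians away from 0, so each member was set beside its own chromosome. Chromosome 17 had a median log2 fold change of -0.26 and chromosome 12 one of -0.22, while chromosome 9 had 0.20 and chromosome 11 had 0.18. Relative to these, Ppp2r1a was at -0.14, Ppp2r5c at -0.04, Ppp2r1b at 0.36 and Ppp2ca at -0.01. The chromosome medians of Ppp2r2c (0.01, chromosome 5) and Ppp2r2b (-0.02, chromosome 18) were near 0, and both genes kept their distance, at -6.09 and -3.24. Ppp2r2a was at -0.14 relative to chromosome 14 (median -0.13). Ppp2r2c had the lowest log2 fold change of the 911 tested genes on chromosome 5, and on chromosome 18 only 1 of 382 was lower than Ppp2r2b.

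Genes beside Ppp2r2c were mixed. Of 17 tested genes that start within 1 Mb, 6 were called lower (35.3%, against 18.3% of all tested genes) and 1 higher (5.88%, against 19.1%), at a median log2 fold change of -0.05. The nearest upstream start, 37.9 kb away, is that of Man2b2, a lysosomal alpha-mannosidase gene, which fell from 45.9 ± 11.3 to 26.5 ± 2.41 CPM (SD, n = 3 each), a log2 fold change of -0.79 ± 0.17 (SE; edgeR adjusted p = 0.00656). The nearest downstream start, 121 kb away, is that of Wfs1, which encodes the endoplasmic reticulum protein wolframin. Wfs1 did not pass the test, with 25.3 ± 1.68 and 29.4 ± 1.99 CPM (SD, n = 3 each) and a log2 fold change of 0.21 ± 0.09 (SE; edgeR adjusted p = 0.0961). The other 5 that fell were Sorcs2, Evc, Evc2, Stk32b and Msx1, at log2 fold changes of -1.45, -1.72, -1.83, -3.01 and -1.43. These 5 are named after their values were seen. Evc and Evc2, a pair of ciliary genes that share a promoter region, lie 468 kb and 470 kb downstream. None of the 17 fell as far as Ppp2r2c. The number called higher was 4 without WT replicate 2, 3 without AXL KO replicate 2 and 2 without WT replicate 1, WT replicate 3 or AXL KO replicate 1.

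Around Ppp2r2b most genes were close to no change. Of 9 tested genes that start within 1 Mb, edgeR called 0 lower (1 at an unadjusted p under 0.05, 1 with DESeq2, 0 with limma-voom) and 1 higher (11.1%, against 19.1% of all tested genes), and the median log2 fold change was 0.18. The nearest upstream start, 112 kb away, is that of Gm8181 (0.22 ± 0.20, SE; edgeR adjusted p = 0.41). The 1 gene called higher was Spink5, a protease inhibitor gene 904 kb upstream, at a log2 fold change of 3.81 from 0.230 CPM in WT libraries, and it was named after its value was seen.

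**Figure D4:**
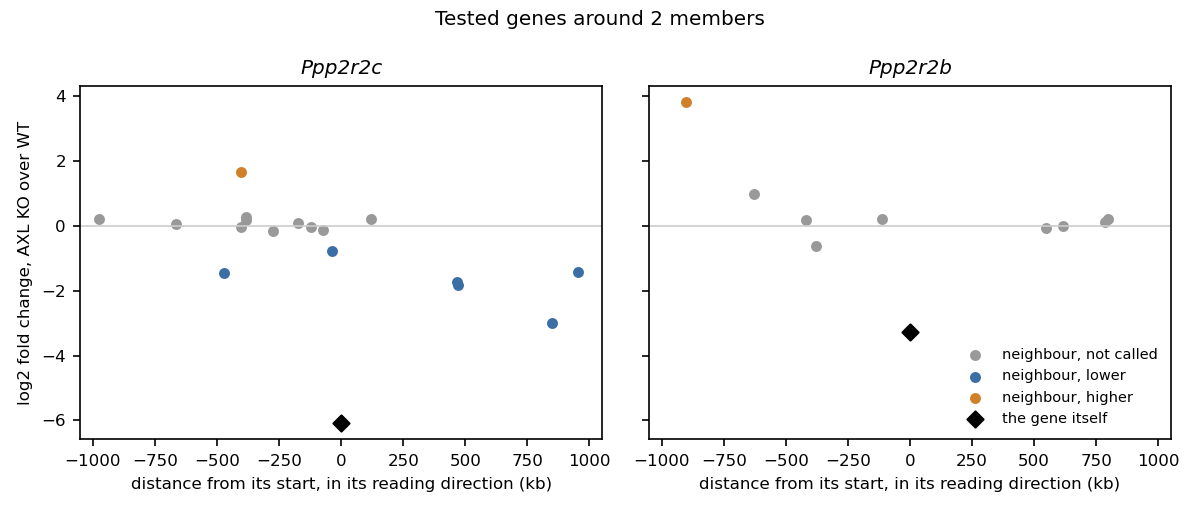
Log2 fold change (AXL KO over WT) of tested genes by the distance of their start from that of Ppp2r2c (left) and Ppp2r2b (right), in kb along the member's reading direction; colours give the call and the diamond is the member. Around Ppp2r2c 6 of 17 genes were called lower and 1 higher, and around Ppp2r2b 0 of 9 lower and 1 higher. All neighbours lie above the member itself, the lowest being Stk32b at -3.01 beside Ppp2r2c at -6.08.

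The 2 members that fell most also varied in different ways between replicates. The SD of log2 CPM of Ppp2r2c was 0.54 over WT libraries and 1.29 over AXL KO libraries, and 4.41% and 0.189% of tested genes varied more. For Ppp2r2b it was 0.26 and 0.17, with 22.7% and 30.9% of tested genes more variable. The genes whose log2 CPM followed Ppp2r2c most closely over the 6 libraries, among 11387 ranked, were Spry2, Spast, Pgrmc2, Lpcat4 and Mfsd10 (Pearson r from 0.9965 to 0.9979). Their own log2 fold changes were small, -0.52, -0.31, -0.29, -0.74 and -0.54, and like Ppp2r2c they were lowest of the WT libraries in replicate 1 and highest of the AXL KO libraries in replicate 1. For Spry2, which encodes a feedback inhibitor of receptor tyrosine kinase signalling, this was 91.4, 96.5 and 101 CPM in WT and 73.3, 65.1 and 64.0 CPM in AXL KO libraries. The genes closest to Ppp2r2b were Atp6v0e, Epcam, Rpl37, Cyb5r3 and Zfyve21 (Pearson r from 0.9973 to 0.9988), with log2 fold changes of -0.38, -0.53, -0.42, -0.57 and -0.63. These correlations share the same 6 libraries and mostly the same step between the groups.

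Most other genes of the PP2A system did not pass the test. Over 4 lists of PP2A genes that are not members, 40 of 41 genes were tested, of which 3 rose (7.5%, against 19.1% of all tested genes), 5 fell (12.5%, against 18.3%) and 32 did not pass, at a median log2 fold change of -0.08. The 9 other regulatory subunits gave 1 that rose (11.1%, against 19.1%) and 2 that fell (22.2%, against 18.3%). Ppp2r3a, of the calcium-binding PR72 class, rose from 49.6 ± 5.32 to 66.9 ± 4.59 CPM (log2 fold change 0.43 ± 0.10, SE; edgeR adjusted p = 0.00884, n = 3 each). The B56 genes Ppp2r5e and Ppp2r5d fell from 79.0 ± 4.43 to 61.1 ± 3.03 CPM (-0.37 ± 0.08, SE; edgeR adjusted p = 0.00644) and from 72.2 ± 5.45 to 57.2 ± 3.28 CPM (-0.34 ± 0.09, SE; edgeR adjusted p = 0.0139). Strn, a striatin that serves as a regulatory subunit, was at -0.25 ± 0.11 (SE; edgeR adjusted p = 0.0931). None of these 9 genes rose or fell by 2-fold. Relative to the median of their own chromosomes the differences were smaller: 0.23 for Ppp2r3a, -0.15 for Ppp2r5e, -0.08 for Ppp2r5d and 0.01 for Strn.

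Of 13 genes for assembly, methylation and inhibition of PP2A, 1 rose (7.69%, against 19.1% of all tested genes) and 2 fell (15.4%, against 18.3%). Ppme1, the methylesterase that removes the methyl group from the catalytic subunit's tail, fell from 62.4 ± 9.07 to 47.0 ± 3.03 CPM (-0.41 ± 0.11, SE; edgeR adjusted p = 0.0186). Mastl, the Greatwall kinase whose pathway inhibits B55 holoenzymes in mitosis, rose from 22.0 ± 2.90 to 28.3 ± 1.45 CPM (0.36 ± 0.11, SE; edgeR adjusted p = 0.0275). Anp32a, a PP2A inhibitor protein, fell from 177 ± 9.46 to 149 ± 9.89 CPM (-0.24 ± 0.08, SE; edgeR adjusted p = 0.0372), and Set, another inhibitor, was at -0.22 ± 0.08 (SE; edgeR adjusted p = 0.0516). Relative to its chromosome's median Anp32a was at -0.44. The log2 fold changes of the called genes kept their direction with each library left out, but some calls were lost. That of Ppp2r5d was lost (-0.28 and -0.32) without WT replicate 3 or AXL KO replicate 3, and that of Ppme1 without either of these or AXL KO replicate 1 (-0.38 to -0.42). Mastl lost its call without WT replicate 1, WT replicate 2, AXL KO replicate 1 or AXL KO replicate 3 (0.29 to 0.39), and Anp32a without WT replicate 1, WT replicate 3, AXL KO replicate 1 or AXL KO replicate 3 (-0.21 to -0.23). Over the 4 lists, 1 gene was called lower without WT replicate 3 or AXL KO replicate 3, and 2 without AXL KO replicate 1.

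Of 10 tested partners of the striatin complexes (STRIPAK), 1 rose and 1 fell. Strip2, a core STRIPAK protein, rose from 0.291 ± 0.0504 to 1.02 ± 0.128 CPM (1.8 ± 0.28, SE; edgeR adjusted p = 0.00151), on 7, 8 and 10 counts in WT and 29, 37 and 27 counts in AXL KO libraries. It was the 1 gene of the 4 lists with a difference of 2-fold or more. Slmap, a membrane-anchored STRIPAK protein, fell from 253 ± 15.9 to 214 ± 11.5 CPM (-0.24 ± 0.08, SE; edgeR adjusted p = 0.0381), and this call was lost when any library other than WT replicate 1 was left out. Relative to its chromosome's median Slmap was at -0.11. Cttnbp2nl (-0.24) and the kinase gene Stk24 (-0.12) did not pass. Of 8 genes for proteins that recruit B56 or work with it in mitosis, edgeR called 0, against 37.4% of all tested genes. There were 2 at an unadjusted p under 0.05, and 0 were called with DESeq2 or limma-voom. Apc and Axin1, of the beta-catenin destruction complex, were at 0.32 (adjusted p = 0.0713) and -0.15, Sgol1, a protector of centromere cohesion, at -0.28 (adjusted p = 0.0925) and Bub1b, a spindle checkpoint kinase-like protein, at -0.14.

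The related phosphatases PP4 and PP6 were listed separately. Of their 13 genes, 4 rose (30.8%, against 19.1% of all tested genes) and 0 fell (edgeR, against 18.3%; 0 lower at an unadjusted p under 0.05 or with DESeq2 or limma-voom), at a median log2 fold change of 0.16. Smek2, a PP4 regulatory subunit, rose from 103 ± 6.87 to 142 ± 1.35 CPM (0.47 ± 0.07, SE; edgeR adjusted p = 0.00161). Ppp6r3 and Ankrd44, regulatory subunits of PP6, rose by 0.30 and 0.43 on the log2 scale (edgeR adjusted p = 0.0103 and 0.0148), and Ppp4r4 by 0.57 (edgeR adjusted p = 0.0421). Relative to their chromosomes' medians Smek2 was at 0.28 and Ppp4r4 at 0.79. DESeq2 called 3 of the 4. The call of Ankrd44 was lost without WT replicate 3 or AXL KO replicate 3, and that of Ppp4r4 when any library other than WT replicate 2 was left out.

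Since Ppp2r2b and Ppp2r2c are best known from neurons, neuronal markers were read in the same libraries. Of 12 neuronal genes, 10 were under 1 CPM in every library, among them Rbfox3, Snap25, Syt1, Syp and Elavl4, and Snap25 and Nefm had no count in any. The summed level of the list was 114 to 137 CPM in WT and 127 to 158 CPM in AXL KO libraries, mostly from Map2, which rose from 109 to 138 CPM on average (0.34 ± 0.10, SE; edgeR adjusted p = 0.0309). Eno2, the other neuronal gene above that level, fell from 11.7 to 6.35 CPM with libraries that overlapped (-0.89 ± 0.30, SE; edgeR adjusted p = 0.048). Of 7 genes of Schwann cells and glia, Gfap was under 1 CPM in every library, the sum was 692 to 763 CPM in WT and 647 to 748 CPM in AXL KO libraries, and S100b fell from 99.8 to 28.0 CPM.

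Markers of other cell types differed between the groups in some lists and not in others. Luminal epithelial markers were abundant in these mammary tumours and summed to 12000 to 13300 CPM in WT and 12100 to 14400 CPM in AXL KO libraries, with 2 of 9 tested genes higher and 4 lower and Krt19 under 1 CPM throughout. Most of that sum was Erbb2, the mouse counterpart of Neu. Without Erbb2, a choice made after seeing the data, the other 9 markers summed to 5150 to 5490 CPM in WT and 3970 to 4360 CPM in AXL KO libraries. Epcam (-0.53), Krt8 (-0.44), Krt18 (-0.60) and Cldn3 (-0.26) were called lower, but Esrp1 (0.56) was called higher. Cdh1 (0.13), Elf5 (0.02) and Cldn7 (-0.16) were not called. The basal keratins Krt5, Krt14 and Krt17 and Trp63 were under 1 CPM in every library. The whole basal and myoepithelial list summed to 91.5 to 123 CPM in WT and 33.6 to 76.3 CPM in AXL KO libraries, mostly from Acta2. Acta2, a smooth muscle actin gene, fell from 94.2 to 40.6 CPM (-1.21 ± 0.29, SE; edgeR adjusted p = 0.0111). It was the only one called of the 4 tested genes of this list. Myh11 was at -0.60 without a call, and Trp63 (0.33) and Oxtr (0.28) went the other way without a call. Macrophage markers summed to 366 to 496 and 380 to 512 CPM, with 1 of 8 genes called (12.5%, against 37.4% of all tested genes). This was Fcgr1, an Fc receptor gene that rose by 1.11 on the log2 scale. The median log2 fold change of the 8 genes was 0.1, and Cd163 (-0.32), Mrc1 (-0.27) and Cd68 (-0.22) were below 0 without a call. Muscle markers summed to 5.58 to 7.73 and 2.76 to 5.56 CPM, mostly from Des, which fell from 5.34 to 2.46 CPM. Acta1, Ckm, Myh4, Tnnt3 and Mylpf were under 1 CPM in every library. Of these, Ckm (0.83) and Mylpf (0.39) were tested and went the other way without a call. Of 8 fibroblast markers edgeR called 0 (0 at an unadjusted p under 0.05, and 0 with DESeq2 or limma-voom), with sums of 1670 to 2840 and 1290 to 2110 CPM. Endothelial markers fell, 6 of 7 genes, from sums of 286 to 317 to sums of 167 to 224 CPM. T and NK cell markers rose, 9 of 10 genes, from sums of 9.20 to 14.6 to sums of 44.4 to 55.8 CPM. The part of these differences in the values of the PP2A genes was not tested.

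Shared sequence limits some of the counts. No 50-base word of a member's transcripts occurred in another member's. Shared words with any other gene were 0.045% for Ppp2r2c, 3.03% for Ppp2r2b and 0% for Ppp2cb, but 41.0% for Ppp2ca, mostly with 9430098F02Rik, a gene annotated on the opposite strand of its locus that had 1 count over the 6 libraries together. Ppp2r5a shared 20.6%, with several genes. On the opposite strand of Ppp2r2c the antisense gene Ppp2r2cos had 2 counts in WT and 0 in AXL KO libraries in all.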

How the data were processed

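RNA-seq of 6 grafts was used, 3 WT and 3 AXL KO by sample title. Per the labels' protocols, total RNA was isolated with Trizol and then column-purified. CASAVA 1.8, TopHat2 2.0.10, HTSeq 0.5.3, DESeq2 1.4.5 and the build GRCm38 are named in the submitters' processing notes. Their settings and any use of strand were not given in the sources used here. The authors deposited 1 raw count per gene and library, and 5 rows that name no gene stayed out of library sizes and tests (no feature 4.41% to 6.88%, ambiguous 0.717% to 1.09%, not unique 25.7% to 29.0%). The authors' deposited table also holds a signal per library (the count divided by a size factor), log2 fold changes with the sign of WT over AXL KO, turned round here, and p-values. Reads with several alignments are missing from the counts, which can lower genes with close copies.

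Counts were tested with edgeR 4.0.16 (quasi-likelihood, TMM, filterByExpr at a minimum count of 10 and total of 15, group as the only term, two-sided) in R 4.3.3, with Benjamini-Hochberg adjustment over all 14850 tested genes. Standard errors come from the fold change and its F statistic. Levels per kb use the union of exons in GENCODE M21, whose transcripts also gave the shared words. Alternatives were DESeq2 1.42.0, limma-voom (limma 3.58.1), other size factors, filters and thresholds, a replicate block, each library left out, chromosome medians removed, other windows and the longest transcript as the gene length. Replicates were checked for duplicates with a chi-square of their counts, and none was found. Replicate numbers were not taken as pairs.

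The members and lists were chosen with earlier results of these data known. Named were all members, up to 4 genes with the smallest p of each list, the nearest tested gene on each side of Ppp2r2c and Ppp2r2b, and the 5 genes most alike to each by Pearson r of log2 CPM (prior count 2, mean log2 CPM of at least 2). Some genes that this rule or a list takes are not reported here.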

Additional observations from a re-analysis of the deposited data

How the results depend on the processing

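Ppp2r2c, Ppp2r2b, Ppp2r1a and Ppp2r1b kept their calls and directions in all 13 other fits, while Ppp2r2a, Ppp2ca, Ppp2r5a and Ppp2r5c crossed the threshold in some and Ppp2cb changed sign, from -0.08 without WT replicate 2 to 0.01 without WT replicate 1. Leaving out 1 library, members called lower ranged from 3 to 6 and called higher from 1 to 2, and other PP2A genes called lower from 1 to 7. At an adjusted p under 0.01, 3 members and 1 other PP2A gene were called lower, and 3074 of all genes were called. With a 2-fold minimum, 2 members were called lower and 0 higher, 0 other PP2A genes lower and 1 higher, and 1480 genes in all. Without a filter on low counts, 3 other PP2A genes were called lower. Same-numbered libraries did not deviate together (r of -0.058, -0.125 and 0.088 for numbers 1, 2 and 3), and no library correlated best with its own number. A replicate block gave 6 members lower (with Ppp2r5a among them), 3 other PP2A genes lower and 4831 genes called in all. Neighbours of Ppp2r2c called higher numbered 3 without a filter, 0 among genes with mean log2 CPM of at least 2, 1 to 4 with 1 library left out and 5 within 2 Mb, where 10 were called lower. Neighbours of Ppp2r2b called lower numbered 1 with DESeq2, without a filter or within 2 Mb, and 0 to 1 with 1 library left out. Those called higher numbered 0 among genes with mean log2 CPM of at least 2 or within 0.5 Mb, 2 within 2 Mb, and 1 to 2 with 1 library left out. With the longest transcript as the length, the share of B55 RNA was 68.8% for Ppp2r2a, 3.63% for Ppp2r2b and 26.7% for Ppp2r2d in AXL KO libraries and 17.1% for Ppp2r2b in WT libraries. The cause of these differences was not tested. Ppp2r2c had 13 to 68 counts per AXL KO library, and the largest SE of the members.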

Other observations

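Within the AXL KO group, Ppp2r2c was highest in replicate 1, and a comparison added after seeing the data asked whether that library was generally higher for genes that fell steeply. Of 37 called genes at least 8-fold lower in AXL KO libraries, 13 were highest in AXL KO replicate 1, 23 in replicate 2 and 1 in replicate 3. The median ratio of replicate 1 to the mean of replicates 2 and 3 was 0.931 over these genes, against 5.23 for Ppp2r2c, which 1 gene exceeded.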
